A study of Mus musculus with 6 samples.

Results

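Levels of 8 genes that shape the actin cytoskeleton were followed in 6 clonal lines of mpkCCD, a mouse kidney cortical collecting duct cell line. The genes were taken by symbol from the 20896 rows of the deposited read table, and each had 1 row: the I-BAR genes Baiap2, Baiap2l1, Baiap2l2 and Mtss1, and the DOCK genes Dock1, Dock5, Dock6 and Dock9. The group of genes was chosen by family and with their log2 fold changes between knockout and control clones already known, so those values are described here and support nothing. The 6 libraries came from 3 control clones and 3 clones with the label PKA dKO, a double knockout of protein kinase A made from the clone mpkCCDc11; the study's title names CRISPR-Cas9. PKA is the kinase activated by cyclic AMP, through which vasopressin acts on the collecting duct. All clones of both groups had grown for 4 days on permeable supports in 2% serum with insulin, dexamethasone, triiodothyronine, epidermal growth factor, selenite and transferrin, and then spent 3 days in medium free of serum and hormones with 0.1 nM dDAVP, an agonist of the V2 vasopressin receptor. Each library came from 1 clone, so effects of the knockout, of clonal history and of culture cannot be told apart within a library, and no library without dDAVP was used here.

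I-BAR domains are curved protein modules that bind the inner face of the plasma membrane and bend it outwards, as in filopodia and microvilli. The I-BAR proteins carry further parts that bind actin or actin regulators, which couples membrane shape to actin assembly. DOCK proteins are guanine nucleotide exchange factors: they switch on the small GTPases Rac and Cdc42, which in turn drive actin branching through the WAVE and N-WASP proteins and the Arp2/3 complex. In collecting duct cells, cortical actin is known to take part in holding and releasing the vesicles that carry water channels.

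Because members of a family resemble each other, shared sequence was looked for first, since it decides whether reads of the transcripts could be mistaken for each other. The longest run of identical bases was 30 between Dock1 and Dock5, and 17 between Baiap2l1 and Baiap2l2, the highest among the I-BAR pairs. Both lie in coding sequence (from coding base 429 of Dock1 and 426 of Dock5, and from base 1480 of Baiap2l1 and 1504 of Baiap2l2, in GENCODE M21 transcripts). The other 10 pairs within a family shared runs of 12 to 15 bases. The 2 longest shared runs are:
Dock1 and Dock5: agagctgaagaagaaggtcacagccaaaat
Baiap2l1 and Baiap2l2: ccctttgccaccgtgaa
Read length and the handling of reads with several matches: not given in the sources used here.

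Promoters were searched for the cyclic AMP response element, to which the PKA substrate CREB binds, in windows of 300 bases (250 before and 50 after a start site; RefSeq, build GRCm38.p6). The table held 7 promoters for 5 of the genes. Baiap2l2, Mtss1 and Dock5 had no entry. The full element TGACGTCA was in none of the 7, against 1.79% of all 32851 promoters in the table. Its core TGACG, searched on both strands and also counted where it lies inside the full element, was in 2 of the 7, against 20.8% of all. They were the promoter of Dock6, with a core centred 95 bases before the start and another 45 bases after it, and the outermost of 3 promoters of Dock9, with a core centred 21 bases before the start. The windows around the cores that precede the start are shown because they are the only matches before a start among these 7 promoters, with the core in capitals (minus strand; CGTCA is the core on the opposite strand):
Dock6, chr9:21852702-21852758: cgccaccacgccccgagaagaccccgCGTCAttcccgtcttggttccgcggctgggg
Dock9, chr14:121797727-121797783: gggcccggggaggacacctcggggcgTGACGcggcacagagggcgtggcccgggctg
The promoter of Dock9 that adjoins the start of the deposited transcript held no core. A match is a description of the letters and not a site of binding.

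The depth behind the values was 28596444 to 42515838 reads per library, recovered as described in the methods. Prkaca, which encodes the PKA catalytic subunit alpha, averaged 99.8 CPM (reads per 1000000 of the library total adjusted for composition) in control clones and 7.52 CPM in PKA dKO clones. Which PKA genes were edited is not said in the labels. The 5 epithelial markers summed to 4411 to 4819 CPM in control and 3996 to 4353 CPM in PKA dKO clones, and no marker of any list was at 0 in all libraries. Of the 8 principal cell markers in the table, Aqp2 alone passed the test, and it was nearly lost in PKA dKO clones (232 and 2.64 CPM). Aqp4 (6.65 and 0.34 CPM) and Avpr2 (58.6 and 46.8 CPM) were lower in every PKA dKO clone without passing (limma adjusted p = 0.128 and 0.695). For the other principal cell markers the groups overlapped. Marker sums were at most 5.53 CPM for fibroblasts, 5.17 CPM for endothelium and 9.52 CPM for leukocytes in any library; 52.6 CPM for intercalated cells; and 3.14 CPM for thick limb and distal tubule. Proximal tubule markers summed to 312 to 409 CPM in control and 700 to 868 CPM in PKA dKO clones, which was mostly the endocytic receptor gene Lrp2. Lrp2 had 360 and 786 CPM in control and PKA dKO clones and passed the test (limma adjusted p = 0.0252). The part of these markers in the results was not tested. Control clone 1 and PKA dKO clone 3 stood apart: 2443 and 2363 transcripts lacked a read there, and 863 to 1045 elsewhere. Each group held 1 of them, and values are therefore also given for the other 4 libraries alone and for PKA dKO clone 3 against control clone 1.

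The groups were compared with limma over all 16683 genes that passed a filter on low reads, with Benjamini-Hochberg adjustment and a threshold of 0.05; all 8 genes passed the filter. Of the 8, Baiap2l2 and Dock5 were past the threshold, both lower in PKA dKO clones; of all genes tested, 0.168% passed in either direction and 0.114% as lower. An unadjusted p under 0.05 with a lower level was found for 4 of the 8 and for 3.84% of all genes. The fold change was below 0 for 6 of the 8 and for 50.2% of all genes. In 4 of the 8 genes, Baiap2l1 and Dock9 besides these, each PKA dKO clone lay below each control clone, which held for 5.67% of all genes; groups did not overlap in either direction for 10.8%. The choice of the genes used this contrast, so these shares are no evidence about the families. The log2 fold changes (PKA dKO minus control, on log2 of scaled reads plus 1) had a median of -0.33 over the 8 genes, -0.33 over the 4 I-BAR and -0.34 over the 4 DOCK genes, with a median of 0.00 over all genes tested.

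**Figure D1:**
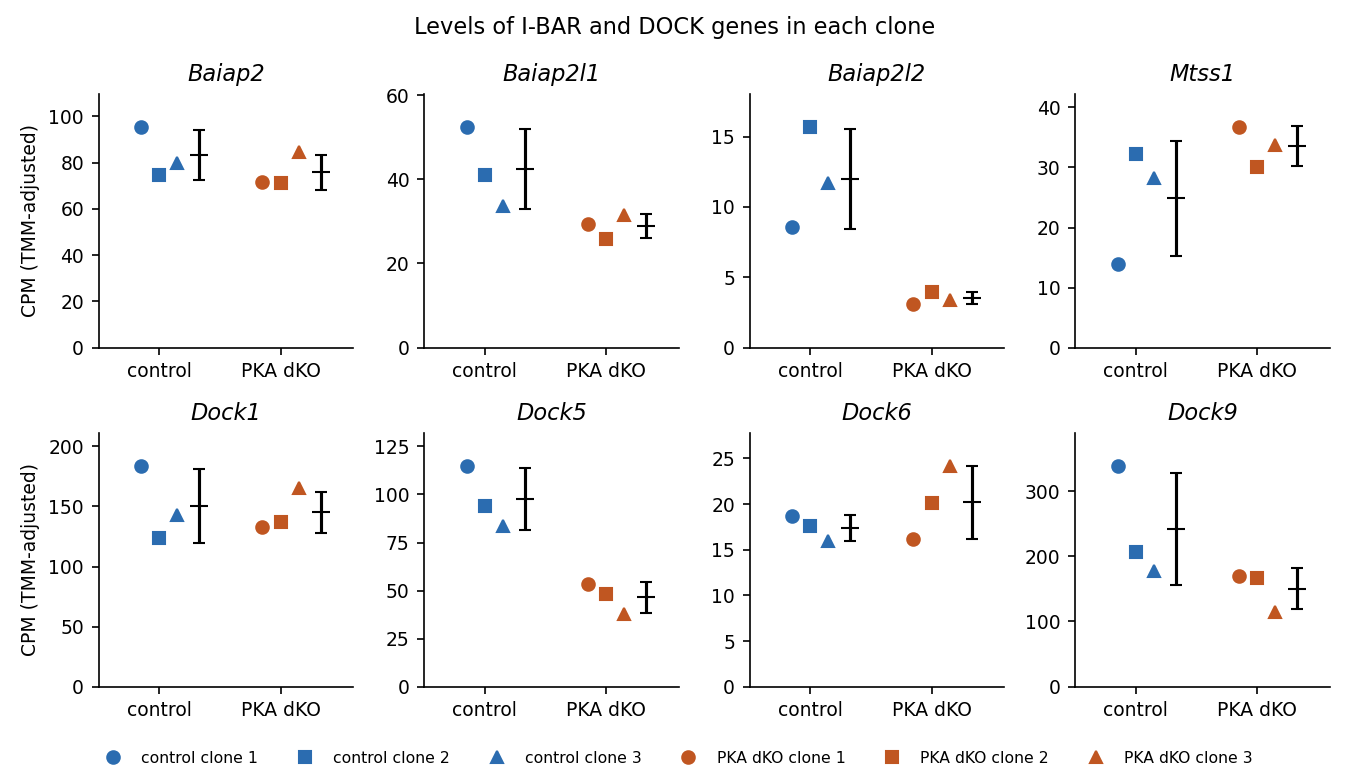
Level of each of the 8 genes in each clone, in CPM on a linear axis from 0; points are single libraries (shape, clone number; colour, group) and the black bar is the mean with its SD over 3 clones. The groups are apart for Baiap2l1, Baiap2l2, Dock5 and Dock9 and overlap for the other 4 genes. Control clone 1 is the lowest point for Mtss1 and the highest for Baiap2, Baiap2l1, Dock1, Dock5 and Dock9.

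Baiap2l2 encodes the I-BAR protein also called Pinkbar, which is found in epithelial cells and favours flat rather than tubular membrane sheets. The gene (ENSMUSG00000018126.15, transcript ENSMUST00000165408.7, GRCm38 chromosome 15, 79258195 to 79285537, minus strand, protein-coding, 14 exons) had 8.55, 15.7 and 11.7 CPM in control clones 1, 2 and 3. It had 3.11, 3.96 and 3.42 CPM in PKA dKO clones 1, 2 and 3. All 3 PKA dKO clones were thus below the lowest control clone, and they lay close together while the control clones did not. The means were 12 ± 3.59 and 3.50 ± 0.43 CPM (SD, n = 3 each). On the log2 scale the difference was -1.72 (SE 0.27), or 3.30-fold lower (95% interval 2.20 to 4.95). The adjusted p in the limma fit over all genes was 0.0362, and it belongs to the values by which the gene was chosen. It was counted with 309, 480 and 507 reads in the control libraries, and with 125, 125 and 122 in the others. The log2 fold change was -1.92 within the 4 libraries and -1.31 in PKA dKO clone 3 against control clone 1. The call was lost when control clone 2 (adjusted p = 0.0822), control clone 3 (0.0627), PKA dKO clone 1 (0.124) or PKA dKO clone 2 (0.0924) was left out of the limma fit.

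Baiap2, or IRSp53, is the founding I-BAR protein and links Cdc42 and Rac to WAVE and Ena/VASP proteins. The gene (ENSMUSG00000025372.16, ENSMUST00000106233.1, chromosome 11, 119942763 to 120006782, plus strand, 15 exons) had 95.5, 74.6 and 79.9 CPM in control clones and 71.7, 71.1 and 84.5 CPM in PKA dKO clones. The groups overlapped, and the 95% interval of its log2 fold change of -0.13 ran from -0.44 to 0.17. Baiap2l1, or IRTKS, binds the actin regulator EPS8 and takes part in the growth of microvilli. It (ENSMUSG00000038859.7, ENSMUST00000055190.7, chromosome 5, 144264526 to 144358112, minus strand, 14 exons) had 52.5, 41.1 and 33.6 CPM in control and 29.4, 25.8 and 31.6 CPM in PKA dKO clones. The PKA dKO clones were all below the control clones, and control clone 3 and PKA dKO clone 3 were the nearest pair. The log2 fold change was -0.53 (95% interval -0.92 to -0.14, limma adjusted p = 0.485), so it did not pass. It was -0.42 within the 4 libraries, -0.36 without control clone 1 and -0.73 in PKA dKO clone 3 against control clone 1. The table's genes Bri3 and Gm15708 overlap Baiap2l1 on the other strand, at 21.3 and 2.57 CPM on average, and the sources used here do not say whether strand was used in counting.

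Mtss1, or MIM, is an I-BAR protein that binds actin monomers and was named for its low level in some metastatic cells. The gene (ENSMUSG00000022353.10, ENSMUST00000080371.6, chromosome 15, 58941244 to 59082026, minus strand, 15 exons) had 14.0, 32.3 and 28.3 CPM in control clones and 36.8, 30.1 and 33.7 CPM in PKA dKO clones. Control clone 1 stood well below the other 5 libraries, which overlapped. The log2 fold change of 0.51 (95% interval -0.07 to 1.10) did not pass the test. It was 0.15 without control clone 1, 0.14 within the 4 libraries and 1.27 for PKA dKO clone 3 minus control clone 1. Without control clone 1, little of the difference was left. The within-group SD of Mtss1, 0.47 on the log2 scale, was the highest of the 8 genes, with a median of 0.19 among the 500 genes nearest to it in level.

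Dock5 is a close relative of Dock1 that activates Rac and is known from bone-resorbing osteoclasts. The gene (ENSMUSG00000044447.5, ENSMUST00000039135.4, chromosome 14, 67751928 to 67933572, minus strand, 52 exons) had 115, 94.2 and 83.4 CPM in control clones 1, 2 and 3. It had 53.5, 48.3 and 37.7 CPM in PKA dKO clones 1, 2 and 3. The highest PKA dKO clone was far below the lowest control clone, and within each group the clones followed one another in small steps. The means were 97.5 ± 16.0 and 46.5 ± 8.05 CPM (SD, n = 3 each). On the log2 scale the difference was -1.07 (SE 0.17), or 2.10-fold lower (95% interval 1.63 to 2.70). The adjusted p in the limma fit over all genes was 0.0373, again from the contrast that chose the gene. With 1344 to 4152 reads per library, counting error is small beside the spread between clones. The log2 fold change was -0.79 within the 4 libraries and -1.61 in PKA dKO clone 3 against control clone 1. The call was lost without PKA dKO clone 1 (adjusted p = 0.0536), clone 2 (0.105) or clone 3 (0.0556).

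Dock9, or zizimin1, is a DOCK protein known to activate Cdc42 rather than Rac. The gene (ENSMUSG00000025558.17, ENSMUST00000040700.7, chromosome 14, 121542039 to 121698417, minus strand, 54 exons) had 339, 207 and 178 CPM in control clones and 170, 167 and 114 CPM in PKA dKO clones. Control clone 3 and PKA dKO clones 1 and 2 lay within a narrow band, and control clone 1 and PKA dKO clone 3, the libraries that stood apart, were the extremes. The log2 fold change was -0.65 (95% interval -1.16 to -0.13; limma adjusted p = 0.570) and did not pass. It was -0.37 without control clone 1, -0.18 within the 4 libraries and -1.57 in PKA dKO clone 3 against control clone 1, so the difference was smallest where both libraries were left out.

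Dock1, or DOCK180, activates Rac together with ELMO proteins in cell movement and in the uptake of dying cells. The gene (ENSMUSG00000058325.6, ENSMUST00000084488.4, chromosome 7, 134670687 to 135173639, plus strand, 52 exons) had 184, 124 and 143 CPM in control clones and 133, 137 and 165 CPM in PKA dKO clones. The groups overlapped fully, and the interval of its log2 fold change of -0.04 ran from -0.39 to 0.32, which leaves out a change as large as that of Dock5; its sign turned within the 4 libraries (0.03). Dock6 activates both Rac and Cdc42. It (ENSMUSG00000032198.9, ENSMUST00000034728.7, chromosome 9, 21800184 to 21852635, minus strand, 49 exons) had 18.7, 17.6 and 15.9 CPM in control and 16.2, 20.1 and 24.2 CPM in PKA dKO clones. Here too the groups overlapped, with a log2 fold change of 0.20 (95% interval -0.20 to 0.60).

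**Figure D2:**
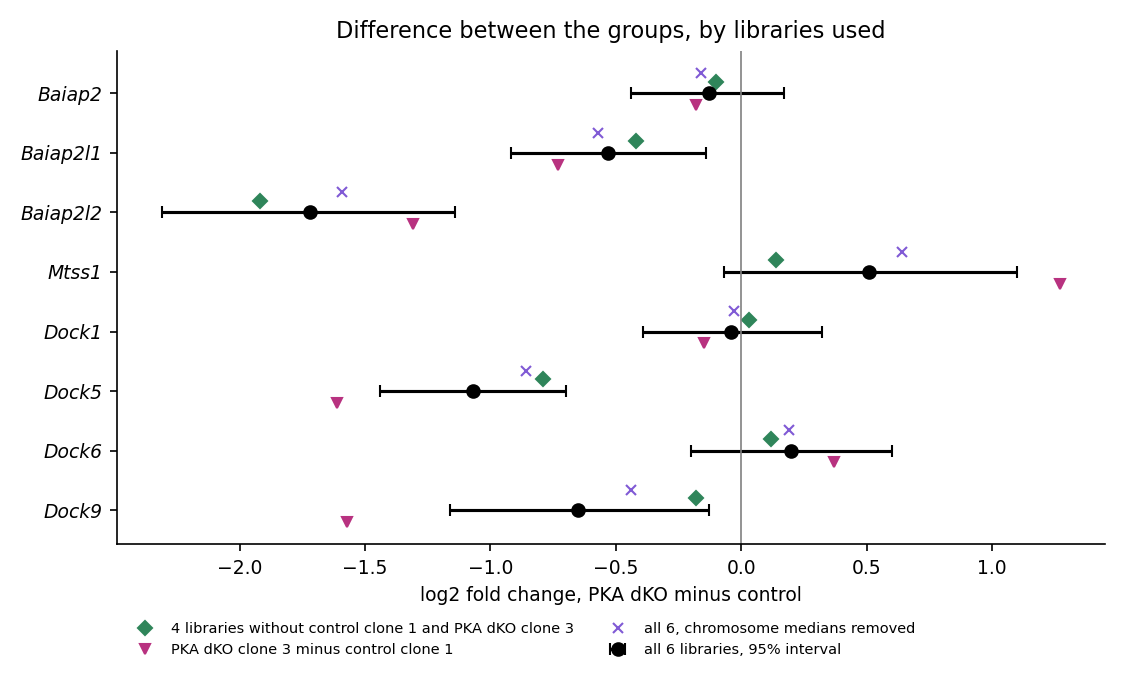
Log2 fold change (PKA dKO minus control) of the 8 genes; black points are the fit over all 6 libraries with its 95% interval, and coloured marks give 3 other values, without an interval: from the 4 libraries, from PKA dKO clone 3 minus control clone 1, and with chromosome medians removed. The marks lie close together for Baiap2 and Dock1 and far apart for Dock9 (-0.18 to -1.57) and Mtss1 (0.14 to 1.27).

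In the authors' deposited table of edgeR results, which held 10190 transcripts with 3.47% of them at a false discovery rate under 0.05, 4 of the 8 genes were under that rate. The authors' deposited table gave log2 fold changes of -1.82 for Baiap2l2 (false discovery rate 9.37e-07), -1.07 for Dock5 (2.32e-07), -0.56 for Baiap2l1 (0.0298) and -0.67 for Dock9 (0.0455). For Mtss1, Baiap2, Dock6 and Dock1 the authors' deposited table gave rates of 0.660, 0.739, 0.807 and 0.938. Baiap2l1 and Dock9 were thus under the rate in that table and not past the threshold in the limma fit here.

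The levels of the genes were also set beside those of their chromosomes and nearest neighbours. On chromosome 14, which holds Dock5 and Dock9, the median deviation of 573 tested genes from their mean over the libraries was -0.44 (log2) in PKA dKO clone 3 and 0.28 in control clone 1. The 20 tested genes nearest to Dock5, over 3.15 Mb, had medians of 0.30, 0.41 and 0.07 in control clones 1, 2 and 3, against 0.05, 0.15 and -0.67 in PKA dKO clones 1, 2 and 3. Dock5 itself stood at 0.78, 0.50 and 0.32 in the control clones and at -0.32, -0.46 and -0.82 in the PKA dKO clones. In PKA dKO clones 1 and 2, Dock5 was therefore low where its neighbours were not, and in clone 3 it was low along with them. Of these neighbours 19 of 20 had a negative fold change, with a median of -0.34 and none past the threshold, and Dock5 had the lowest value. The nearest tested genes were Gnrh1 (0.89 and 0.63 CPM in control and PKA dKO clones) and Nefm (1.28 and 0.93 CPM), both hardly expressed. With each library's chromosome medians removed, the log2 fold change of Dock5 was -0.86 (SE 0.12; limma adjusted p = 0.0227).

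Dock9 followed its neighbourhood more closely. Its 20 nearest tested genes had medians of 0.44 in control clone 1 and -0.46 in PKA dKO clone 3, and between -0.01 and 0.16 in the other 4 libraries. Dock9 stood at 0.87 and -0.70 in those 2 libraries and between -0.15 and 0.16 in the others. The fold change was negative for 19 of the 20, with a median of -0.36, and 2 of them were lower than Dock9. The next gene on either side was Slc15a1 (1.01 and 0.71 CPM) or Ubac2 (46.9 ± 10.3 and 40.1 ± 8.11 CPM). With chromosome medians removed, the log2 fold change of Dock9 was -0.44.

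Among the nearest neighbours of Baiap2l2 on chromosome 15 no such shift was seen. Its 20 nearest tested genes, over 0.626 Mb, had medians between -0.13 and 0.07 in the 6 libraries, and a median log2 fold change of -0.02. The neighbours on either side, Slc16a8 (4.76 ± 0.71 and 5.19 ± 1.61 CPM) and Pla2g6 (24.7 ± 1.70 and 23.8 ± 3.32 CPM, 0.691 kb from it), had overlapping values in the 2 groups. The lowest of the 20 was at -0.91, against -1.72 for Baiap2l2. Over the 702 tested genes of chromosome 15 the median log2 fold change was -0.14. Their median deviations were -0.02, 0.18 and 0.09 in control clones and -0.04, -0.05 and -0.06 in PKA dKO clones. With chromosome medians removed, the log2 fold change of Baiap2l2 was -1.59 (SE 0.24, limma adjusted p = 0.0323). Mtss1, elsewhere on the same chromosome, had neighbours with medians between -0.07 and 0.03, also in control clone 1, where Mtss1 itself stood at -1.0. Its nearest tested genes were Ndufb9 (125 CPM in both groups) and Zfp572 (0.41 and 0.21 CPM).

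For Baiap2l1, Baiap2, Dock1 and Dock6 the median log2 fold change of the 20 nearest tested genes was 0.03, -0.07, 0.06 and -0.11. None of those neighbours was past the threshold. The genes adjoining Baiap2 were Chmp6 (79.8 and 74.9 CPM) and Aatk (7.29 and 11.6 CPM), and those adjoining Dock6 were Kank2 (63.4 and 57.1 CPM) and Rab3d (71.2 and 57.1 CPM). Around Dock1 they were D7Ertd443e (0.41 and 0.46 CPM) and Fam196a (3.64 and 2.31 CPM), which overlaps Dock1 on the other strand.

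**Figure D3:**
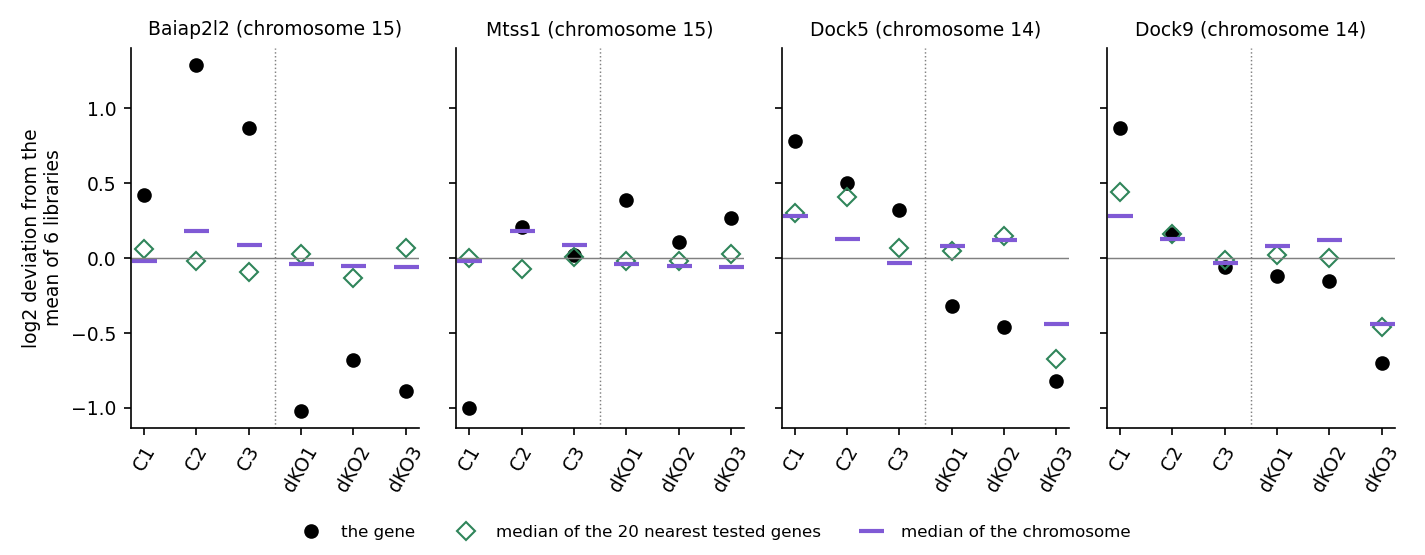
Log2 deviation of each library (C, control clone; dKO, PKA dKO clone) from the mean of the 6 libraries for 4 genes, beside the median of the 20 nearest tested genes and of the whole chromosome. Neighbours stay near 0 for Baiap2l2 and Mtss1, and for Dock5 and Dock9 they are low together with the gene in PKA dKO clone 3 (-0.67 and -0.46).

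Levels were next compared between genes per length of transcript, as CPM per kilobase (RPKM). In control clones Baiap2 was the most abundant of the 5 I-BAR genes at 34.5 ± 4.5 RPKM (SD, n = 3), followed by Baiap2l1 at 13.2 ± 2.96. Then came Mtss1l, the I-BAR gene closest to Mtss1, at 8.94 ± 3.44, Baiap2l2 at 5.78 ± 1.73 and Mtss1 at 5.04 ± 1.96 RPKM. Beyond Baiap2, each gene overlapped the next in this order, so the order of those 4 is not fixed by the control clones. In PKA dKO clones the order was Baiap2 (31.4 ± 3.14), Baiap2l1 (9.0 ± 0.90), Mtss1 (6.80 ± 0.68), Mtss1l (5.09 ± 0.25) and Baiap2l2 (1.69 ± 0.21 RPKM), with no overlap between neighbours. Baiap2l2 made up 5.46%, 11.8% and 8.98% of the summed I-BAR level in control clones and 2.85%, 3.76% and 2.83% in PKA dKO clones. Baiap2 went from 51.1% ± 2.47 to 58.1% ± 1.74 of the sum, which itself was 67.5 ± 7.10 and 54.0 ± 3.98 RPKM.

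Among the 10 DOCK genes compared, Dock9 (30.9 ± 11 RPKM) and Dock1 (22.5 ± 4.57) were highest in control clones. Their ranges overlapped, and Dock9 was above Dock1 within each control clone. Dock8 (13.6 ± 1.58), Dock5 (9.53 ± 1.56), Dock6 (2.69 ± 0.22), Dock4 (0.52 ± 0.01) and Dock3 (0.34 ± 0.13 RPKM) followed, each apart from the one before. Dock10, Dock2 and Dock11 were at most 0.231 RPKM in any library, and Dock2 and Dock11 had 2 reads each in PKA dKO clone 3, so no order among them can be read. Dock2 and Dock10 are known chiefly from blood cells. In PKA dKO clones Dock5, at 4.55 ± 0.79 RPKM, overlapped Dock6 at 3.13 ± 0.62, from which it was apart in control clones.

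**Figure D4:**
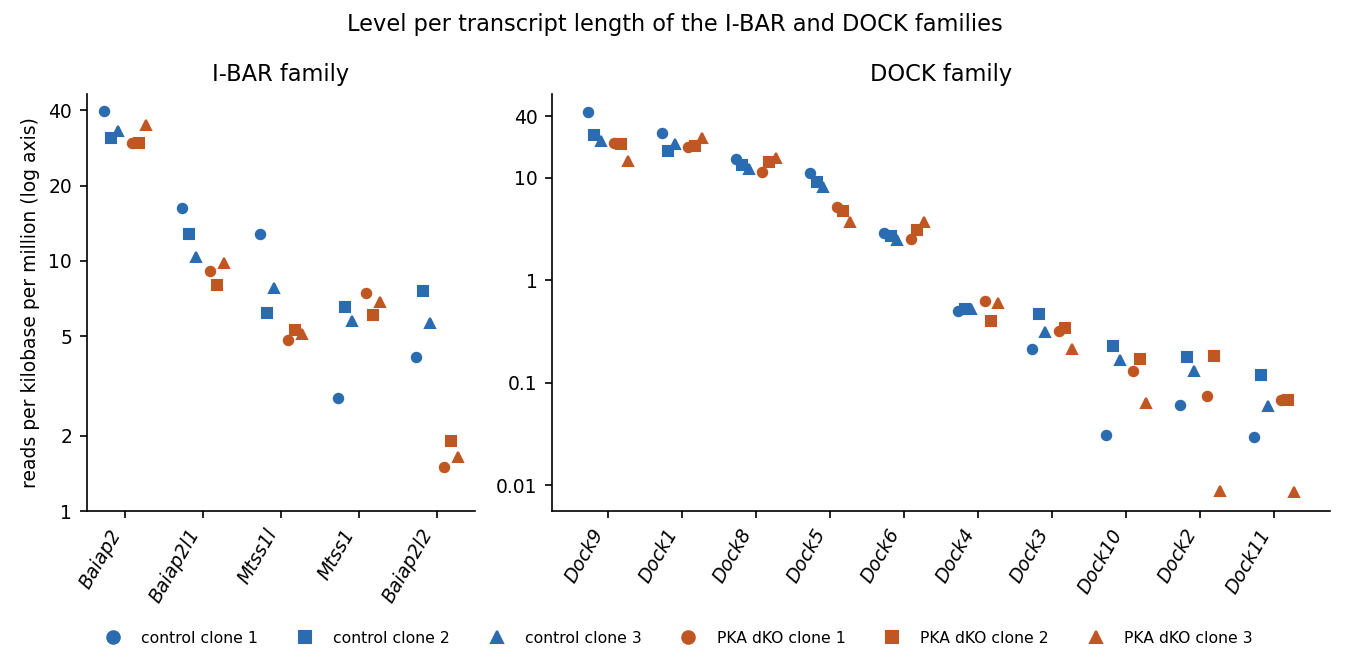
Level per transcript length of the 5 I-BAR and 10 DOCK genes in each clone, in RPKM on a log axis, ordered by the mean over the 6 libraries (shape, clone number; colour, group). Baiap2l2 is the lowest I-BAR gene in PKA dKO clones, Dock5 meets Dock6 there, and the 5 DOCK genes at the right are all at or below 0.623.

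Of the 8 other I-BAR and DOCK genes, none passed the limma test, with an unadjusted p under 0.05 for Mtss1l alone. Mtss1l had 60.0, 29.0 and 36.7 CPM in control and 22.6, 25.0 and 24.0 CPM in PKA dKO clones, so the groups did not overlap. It differed by -0.74 on the log2 scale (SE 0.23; adjusted p = 0.416 in limma), and DESeq2 on recovered reads gave an adjusted p of 0.0451. In PKA dKO clone 3 against control clone 1, the highest library for Mtss1l, the difference was -1.32. Mtss1l was also under the false discovery rate in the authors' deposited table (-0.80, rate 0.00553). Dock8, known from immune cells, had 118, 102 and 94.1 CPM in control and 88.5, 111 and 121 CPM in PKA dKO clones. Dock2 and Dock11 were too low to read a direction: their log2 fold changes were -0.90 (SE 0.90) and -0.58 (SE 0.92).

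The genes through which these proteins reach actin were counted from lists of partners, GTPases, exchange factors and actin-nucleating complexes. Over all lists, 108 genes other than the 8 were tested, and 0 passed the limma test. At an unadjusted p under 0.05, 9 of them had a lower and 3 a higher level, and 6.24% of all genes tested were under it in either direction; edgeR's quasi-likelihood test and limma-voom also called 0, and DESeq2 called 2, both lower. Fold changes were negative for 65 and positive for 43, with a median of -0.07, and negative for 50.2% of all genes tested. Of 79 such genes in the authors' deposited table, 6 were under the false discovery rate: Cyfip2, Elmo3, Mtss1l, Trio, Rhob and Bin3. Of all transcripts there, 3.47% were under it. The lists were chosen with earlier results of these data known, so these counts are no evidence about the pathway.

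ELMO proteins hold DOCK1 and DOCK5 in an active complex. Elmo3 had 131, 95.8 and 108 CPM in control and 75.5, 75.7 and 83.2 CPM in PKA dKO clones. The PKA dKO clones were all lower, with a mean difference of -0.51 on the log2 scale (SE 0.14) that did not pass (limma adjusted p = 0.327). Elmo2 had 143, 97.0 and 97.4 CPM in control and 125, 102 and 122 CPM in PKA dKO clones, which overlap, and Elmo1 was at or under 1.20 CPM in every library. Of 7 DOCK partner genes tested, 0 passed limma, Elmo3 alone had an unadjusted p under 0.05, and the median log2 fold change was -0.23. Lrch1 (-0.27) and Lrch3 (0.27), of a family known to bind DOCK proteins, went opposite ways without passing. Lrch1 lies on chromosome 14, where the median log2 fold change was -0.24.

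Rhob, which encodes a GTPase found on endosomes, had 57.7, 69.8 and 54.6 CPM in control and 87.1, 75.7 and 129 CPM in PKA dKO clones (log2 fold change 0.65, which did not pass; adjusted p = 0.368 in limma). The groups did not overlap, and PKA dKO clone 3 was the highest. Rac1, the main target of DOCK1 and DOCK5, had 318, 217 and 208 CPM in control and 261, 216 and 261 CPM in PKA dKO clones, and Cdc42 had a log2 fold change of 0.14 (SE 0.14) and Rhoa of -0.20 (SE 0.14). Of 20 other Rac and Cdc42 exchange factor genes, 0 passed. Unadjusted p was under 0.05 for Trio (355 and 260 CPM in control and PKA dKO clones), Vav2 (115 and 88.7 CPM) and Kalrn (6.58 and 10.0 CPM).

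The WAVE complex receives Rac's signal and turns on Arp2/3. Of its 10 genes tested, 0 passed the limma test, and Cyfip2, a subunit that binds Rac, had the lowest p. Cyfip2 had 13.7, 9.56 and 15.9 CPM in control and 3.09, 3.23 and 7.63 CPM in PKA dKO clones. All PKA dKO clones were below the control clones, and PKA dKO clone 3 was the nearest to them. The fold change on the log2 scale was -1.58 (SE 0.35; adjusted p = 0.159 in limma); it was -1.94 (adjusted p = 2.23e-05) within the 4 libraries, and leaving out PKA dKO clone 3 gave -1.99 (adjusted p = 0.0190). DESeq2 gave Cyfip2 an adjusted p of 0.00434. Abi2 (0.18) and Brk1 (-0.29) had small fold changes, and so had the Arp2/3 genes Actr3 (0.16), Arpc2 (-0.12) and Arpc4 (-0.21). Brk1 and Arpc4 lie on chromosome 6, where the median deviation in PKA dKO clone 3 was -0.40. In that clone against control clone 1 they were at -0.67 and -0.51. Of the 8 Arp2/3 genes, 0 had an unadjusted p under 0.05.

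I-BAR proteins work with EPS8 proteins and actin bundlers in protrusions and microvilli. Of 17 such genes 0 passed limma, and unadjusted p was under 0.05 for Eps8l1 and Espn. Eps8l1, of the EPS8 family, had 51.4, 43.3 and 40.7 CPM in control and 35.0, 28.7 and 38.2 CPM in PKA dKO clones (log2 fold change -0.41). Espn, an actin bundler of microvilli and stereocilia, had 16.7, 10.9 and 16.8 CPM in control and 29.9, 24.1 and 18.2 CPM in PKA dKO clones (0.70; limma adjusted p = 0.471). Neither pair of groups overlapped; for Espn the nearest libraries were control clone 3 and PKA dKO clone 3, and the limma adjusted p was 0.00303 within the 4 libraries. Pak1, a kinase activated by Rac and Cdc42, was at 0.48. Of 9 microvillus and brush border genes, 0 passed and 0 had an unadjusted p under 0.05. Ezr, which ties microvillar actin to the membrane, was at -0.32 (677 and 546 CPM), and the low genes Myo7b and Cdhr2 were at -0.61 and 0.38. Of 17 genes of the other BAR classes 0 passed. Unadjusted p in limma was under 0.05 for 3, all with lower means in PKA dKO clones. These were Trip10 (157 and 121 CPM), Srgap3 (42.4 and 32.2 CPM) and Bin3 (49.0 and 31.6 CPM). Bin3 lies on chromosome 14 with Dock5 and Dock9. Its log2 fold change was -0.62, and -1.29 in PKA dKO clone 3 against control clone 1.

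**Figure D5:**
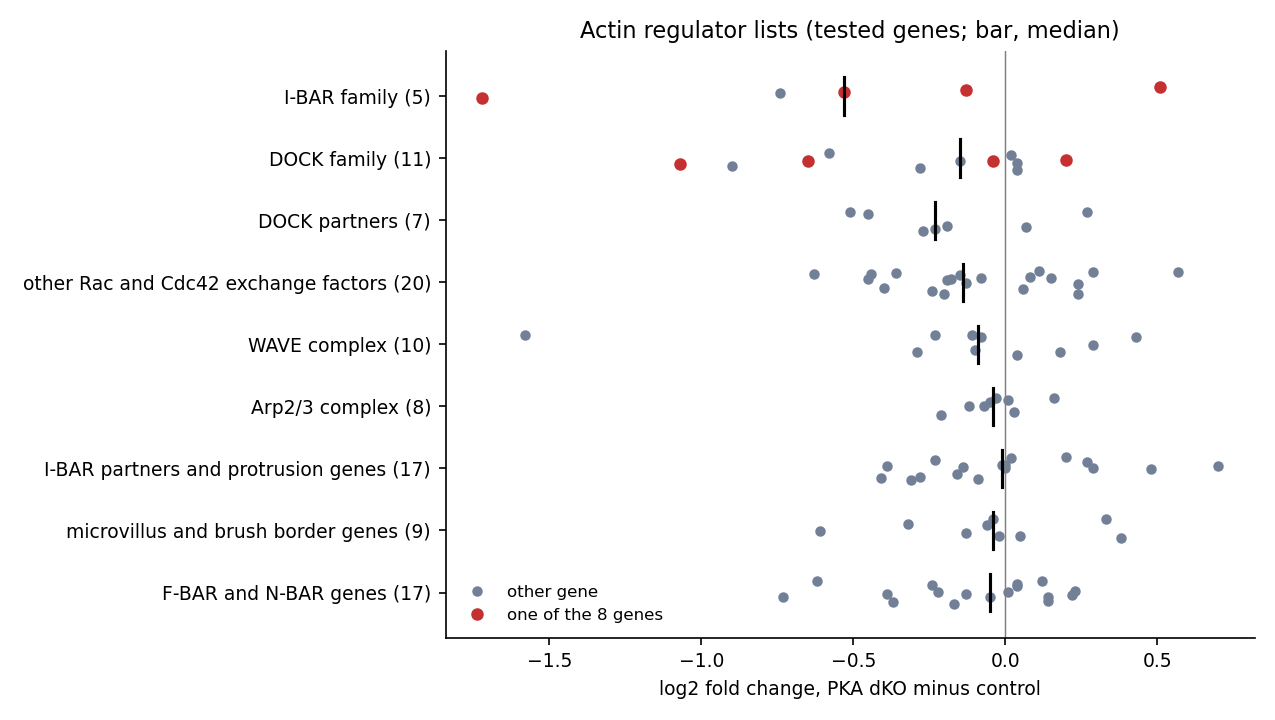
Log2 fold change (PKA dKO minus control) of every tested gene of 9 actin regulator lists, with the number tested in brackets; each point is a gene, red for the 8 genes described, and the bar is the list's median. Baiap2l2 (-1.72), Cyfip2 (-1.58) and Dock5 (-1.07) lie farthest to the left, and list medians other than that of the I-BAR family (-0.53) lie between -0.23 and -0.01.

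Genes whose level followed Baiap2l2 or Dock5 over the 6 libraries were found by Pearson's r of log2 CPM among genes with a mean of at least 2 CPM. All points share the same 6 libraries and the group difference itself enters r, so r is a description. Closest to Baiap2l2 were Gstt2 (r = 0.994; 16.9 and 8.15 CPM in control and PKA dKO clones), Elmsan1 (0.991), the uroplakin gene Upk1a (0.982; 120 and 47.7 CPM), Izumo4 (0.975) and Rpph1 (0.968). Closest to Dock5 were Map3k6 (0.993), Vopp1 (0.991; 152 and 98.2 CPM), Styk1 (0.991; 82.1 and 55.2 CPM), Mettl7a1 (0.991; 32.7 and 15.6 CPM) and Akr1c19 (0.988; 51.9 and 29.4 CPM). Upk1a (log2 fold change -1.33) and Mettl7a1 (-1.07) were past the limma threshold, and the other 8 were not. None of the 10 lies on the chromosome of the gene it followed. Vopp1 and Styk1, which followed Dock5, lie on chromosome 6. In PKA dKO clone 3 the median deviation was -0.40 on chromosome 6 and -0.44 on chromosome 14. The part of these shifts in r was not tested. Rpph1, which followed Baiap2l2, lies on chromosome 14 with Dock5, and Mettl7a1, which followed Dock5, lies on chromosome 15 with Baiap2l2.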

How the data were processed

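Total RNA (262 ng per library) was depleted of ribosomal RNA and made into stranded libraries, per the labels' protocols. Tools listed, without their roles, by the submitters' processing notes are HOMER 4.8, edgeR, STAR 2.5.2a and SAMtools, with genome build GRCm38.p5. The authors' deposited read columns are a signal: reads scaled to a common total. Each library's values are whole multiples of 1 step, and division by it gave whole reads for 100.0% of values (tolerance 0.01). FPKM columns and transcript lengths were deposited beside them; the deposited comparison table holds log2 fold changes, p-values and false discovery rates, per the file headers.

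Scaled reads were divided by TMM factors (edgeR 4.0.16; 0.909 to 1.07), 1 was added (0.055 CPM), and limma-trend was run on their log2 values with group as the only term (R 4.3.3 with limma 3.58.1). Transcripts passed filterByExpr on recovered reads (minimum 10, total 15), leaving 16683 and excluding 4213. edgeR's quasi-likelihood test, DESeq2 1.42.0 and limma-voom ran on recovered reads as alternatives, beside other pseudocounts, filters, libraries and chromosome medians. CPM and RPKM came from recovered reads with TMM-adjusted totals. The limma script was tested on simulated data. Exon counts and coding positions come from GENCODE M21. The limma p-values set the group difference against the spread between single-library clones, which limma draws towards a trend over all genes.

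The 8 genes and all lists were chosen with earlier results of these data known. Named were the 8 genes; of each list, genes past the threshold and the 3 with the lowest p; the 5 genes most like Baiap2l2 and Dock5 by Pearson's r (mean of at least 2 CPM, predicted models left out); and the nearest tested gene on each side of each of the 8. Elmo1, Elmo2, Rac1, Dock8 and the genes of family levels were named besides. No protein sequence was used here, and some list genes are not reported here.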

Additional observations from a re-analysis of the deposited data

How the results depend on the processing

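Under 19 other settings the sign held for Baiap2, Baiap2l1, Baiap2l2, Mtss1, Dock5, Dock6 and Dock9; that of Dock1 turned within the 4 libraries (0.03) and ran from -0.17 to 0.12 when 1 library was left out. Baiap2l2 passed in 12 and Dock5 in 14 of 18 settings with a test, with adjusted p from 6.79e-07 to 0.124 and from 2.66e-06 to 0.171. Of the 8 genes, 1 passed with no filter on low reads, 1 with limma-voom, 1 with deposited FPKM (Dock5 lost, adjusted p = 0.171), and 0 to 2 when 1 library was left out. Calls over all genes numbered 28, and 209 with DESeq2, 91 with deposited FPKM, 518 within the 4 libraries, 71 when the 2 kinds of library were a covariate, and 11 to 146 when 1 library was left out. Of the other list genes, 2 passed with DESeq2, 1 with FPKM, 2 within the 4 libraries and 0 to 1 with 1 library left out. With the clone number as a replicate block, 196 genes passed, among them both Baiap2l2 and Dock5 and 1 other list gene, Cyfip2. Clones of number 2 deviated together (r = 0.639), and those of numbers 1 and 3 did not (r of -0.357 and -0.339). The highest r, 0.663, was between control clone 1 and PKA dKO clone 3, so the numbers do not pair the clones. Signs also turned for Arpc2 within the 4 libraries (0.03), and with 1 library left out for Dock2 (-1.66 to 0.05), Dock11 (-1.02 to 0.15) and Cdhr2 (-0.03 to 0.81). Where a cause is not shown by a setting's construction, the cause was not tested. Low read numbers limit what can be said of Dock2, Dock10 and Dock11, with 2 to 51 reads per library.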
